A study of Mus musculus with 12 samples.

Results

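The genes described are 42 subunits of SWI/SNF, CHD and polycomb chromatin regulators, taken by name from 55385 gene identifiers in the deposited tables. All 42 names matched 1 identifier each. They comprise 22 SWI/SNF subunits, 5 CHD remodelers, 6 subunits of polycomb repressive complex (PRC) 2 and 9 of PRC1. Their messenger RNA was measured by RNA sequencing in C57BL/6 mouse cells of 3 groups of 4 libraries. The groups are the endometrial cancer cell lines HPmECC and mECC, and normal endometrial cells in primary culture, called normal cells here. Sample titles give WT to HPmECC, DM to mECC and B6 to normal cells, and do not spell these codes out. The series' design states that overexpressed Myc is a feature of some of the cancer lines; neither it nor the labels name the line, or the construct. Each cancer group is 1 line, so a difference between HPmECC and mECC is a difference between those lines.

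SWI/SNF complexes use an ATPase, Smarca4 (BRG1) or Smarca2 (BRM), to slide and evict nucleosomes, and come in canonical BAF, PBAF and non-canonical BAF forms that differ in accessory subunits. CHD proteins are ATPases with chromodomains; Chd3 and Chd4 are the alternative motors of the NuRD complex, which also removes acetyl groups from histones. PRC2 methylates a lysine of histone H3 through Ezh2 or Ezh1, PRC1 ubiquitinates histone H2A through Ring1 or Rnf2, and both keep genes repressed in opposition to SWI/SNF. In human endometrial carcinoma, ARID1A is among the most often mutated genes of this kind and CHD4 mutations also recur.

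Libraries held between 18402202 and 26873582 counts in HPmECC, between 21755275 and 25821106 in mECC and between 16332060 and 24202564 in normal cells. The labels name no separate cultures or animals behind the 4 libraries of a group, so p-values measure the spread between libraries only, which may be technical. In bulk RNA, fewer cells of a type and less RNA per cell cannot be told apart. The 12 epithelial markers summed to 310 to 326 CPM, counts scaled to library size, in HPmECC, 1616 to 1655 in mECC and 9490 to 9827 in normal cells, and Cdh1, the adhesion protein of epithelial cells, was at 0.935, 105 and 838 CPM. The 9 endometrial markers summed to 95.3 to 119 CPM in HPmECC, 191 to 208 in mECC and 1119 to 1152 in normal cells; against normal cells 1 was called higher and 7 lower in HPmECC, and 2 higher and 7 lower in mECC. Pgr, the progesterone receptor, was higher in both lines (59.2 CPM in HPmECC, 83.8 in mECC and 19.3 in normal cells), and Sox17 had 0 counts in all HPmECC libraries. The sum of the 10 fibroblast markers stood the other way, at 8732 to 9414 CPM in HPmECC, 7601 to 8426 in mECC and 2316 to 2840 in normal cells. It was carried by Col3a1, Col1a1 and Vim, while Thy1, Dcn and Lum were each under 5 CPM in both lines. Against normal cells 5 of the 10 were called higher and 5 lower in each line. Of all genes 43.0% were called higher and 43.3% lower in HPmECC, and 42.1% and 44.2% in mECC. The 11 leukocyte markers summed to 17.4 to 20.1 CPM in HPmECC, 11.03 to 13.9 in mECC and 257 to 276 in normal cells, and the 8 smooth muscle markers to 313 to 363 in HPmECC, 151 to 156 in mECC and 2689 to 3162 in normal cells. The 6 mesothelial markers were at 47.6 to 53.1 CPM in HPmECC, 53.6 to 59.3 in mECC and 475 to 527 in normal cells. The 18 proliferation genes summed to 2544 to 2624 CPM in HPmECC, 1854 to 2018 in mECC and 1477 to 1526 in normal cells. The part of cell type makeup and of proliferation in the results that follow was not tested. Myc had 266 ± 24.0 CPM in HPmECC, 59.4 ± 2.09 in mECC and 111 ± 5.05 in normal cells (SD, n = 4 each).

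Between the cancer lines most subunits differed by small amounts, and 4 stood out: Chd7 and Cbx7 were more than 2-fold higher in HPmECC by counts, and Smarca2 and Chd3 more than 2-fold lower. The 2-fold size of the higher pair depended on the values used: on log2(TPM + 1) in limma Chd7 was at 0.71 and Cbx7 at 0.96 on the log2 scale, still called, and under library totals Cbx7 was at 0.98. A gene was called where the adjusted p of edgeR's quasi-likelihood test, fitted over all 12 libraries and all 15283 genes tested, was under 0.05. Of the 42 subunits 41 were tested. Dpf3, a subunit of BAF in muscle and nerve cells, fell under the count filter, with 2 counts in total over HPmECC, 2 over mECC and 5 over normal cells. In HPmECC against mECC, 22 of 41 were called higher and 10 lower. Of all genes tested 68.3% were called, 33.8% higher and 34.5% lower, so the share of subunits called higher was above that of all genes and the share called lower below it. With a minimum change of 2-fold, 2 were higher and 2 lower, against 6.73% and 9.40% of all genes. The median log2 fold change was 0.12 over the 41 and -0.0017 over all genes, and the median size of a change was 0.23 over the 41 and 0.32 over all genes. Called higher were 12 of 21 SWI/SNF subunits, 4 of 5 CHD genes, 5 of 6 PRC2 subunits and 1 of 9 PRC1 subunits; called lower were 6, 1, 0 and 3. Without HPmECC replicate 4, or without mECC replicate 4, Cbx7 was at 0.99 or 0.90 and Chd7 alone was at least 2-fold higher.

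**Figure D1:**
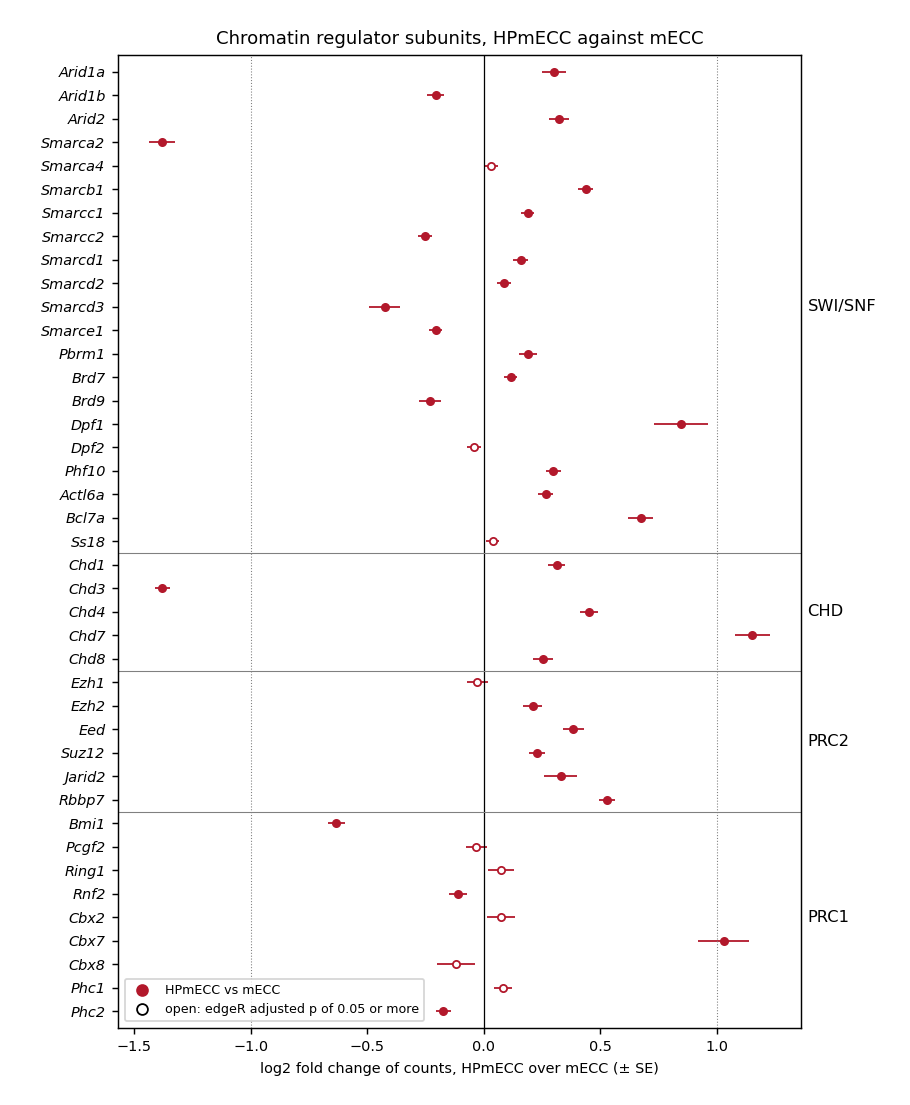
Log2 fold change of counts, HPmECC over mECC, for the 41 subunits tested, by complex; points are edgeR estimates, bars are SE, and open points have an adjusted p of 0.05 or more. Smarca2 and Chd3 both lie at -1.38, Chd7 at 1.15 and Cbx7 at 1.03, past the dotted lines that mark 2-fold.

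Against normal cells the changes were larger. In HPmECC, 24 of 41 subunits were called higher and 12 lower. Of all genes 86.4% were called, 43.0% higher and 43.3% lower. In mECC, 23 were called higher and 12 lower. Of all genes 86.3% were called, 42.1% higher and 44.2% lower. At 2-fold or more, HPmECC had 5 higher (Dpf1, Smarcd3, Phf10, Smarcd1, Cbx2) and 1 lower (Smarca2), against 18.5% and 23.0% of all genes. At the same minimum mECC had 7 higher (Smarcd3, Dpf1, Chd3, Phf10, Smarcd1, Bmi1, Cbx2) and 4 lower (Chd7, Cbx7, Rbbp7, Chd8), against 18.4% and 22.8% of all genes. Of those 4, Chd7 alone was 2-fold lower under library totals, where Cbx7 was at -0.95, Rbbp7 at -0.83 and Chd8 at -0.78, and on log2(TPM + 1) Rbbp7 and Chd8 fell short, at -0.88 and -0.74. The median log2 fold change was 0.31 over the 41 in HPmECC against normal cells and 0.17 in mECC against normal cells, with 0.0012 and -0.018 over all genes. Both lines are set against the same normal libraries, so these counts are not independent of each other.

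The choice of scaling moves every comparison with normal cells. Scaling by library totals in place of TMM factors, which assume that most genes do not change, raised the median of all genes by 0.20 on the log2 scale in HPmECC and by 0.24 in mECC, and the share of calls that were higher was 58.0% in place of 49.8% and 59.1% in place of 48.8%. Under library totals 28 subunits were called higher and 8 lower in HPmECC against normal cells, and 30 and 10 in mECC against normal cells. Changes of about 0.2 or less on the log2 scale against normal cells therefore depend on the scaling. Under library totals those of Smarca2, Actl6a, Chd4 and Rnf2 in mECC, and of Chd3, Rnf2 and Cbx7 in HPmECC, change sign.

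**Figure D2:**
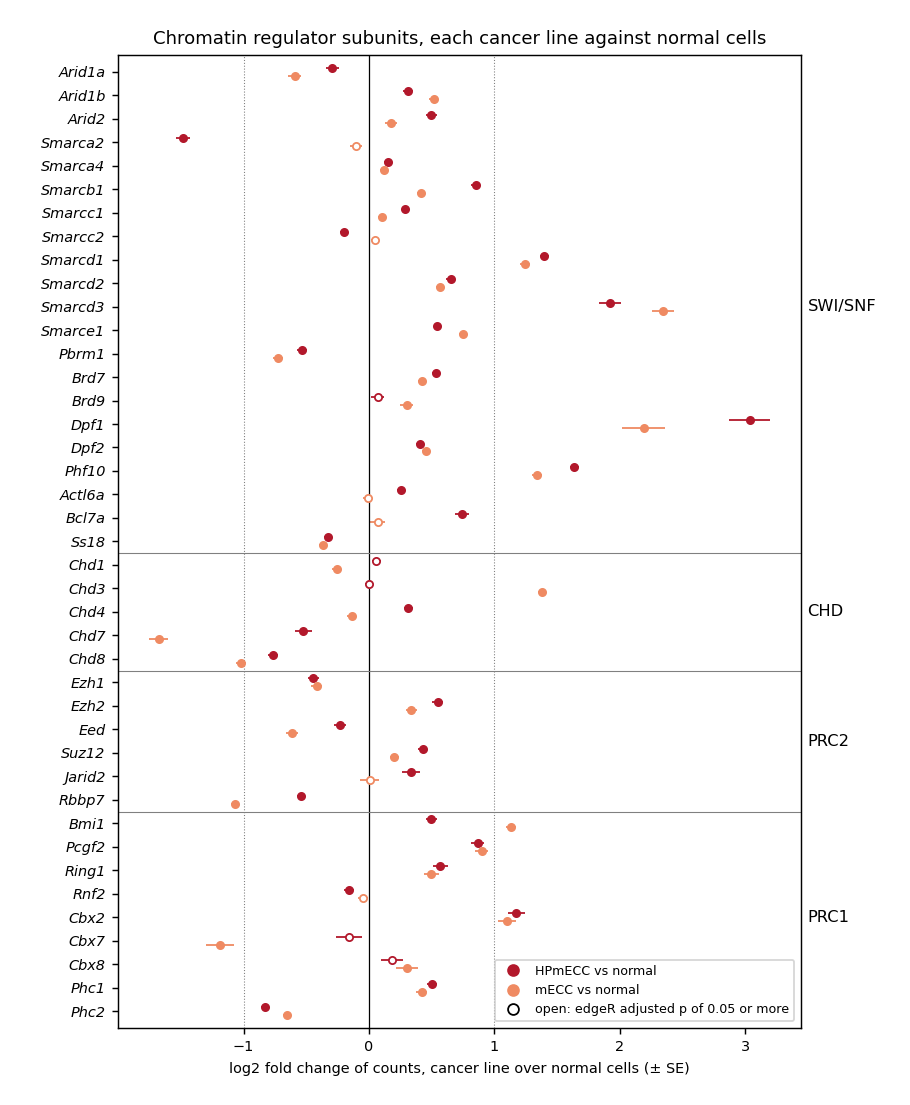
Log2 fold change of counts, each cancer line over normal cells, for the 41 subunits tested (HPmECC dark red, mECC orange); bars are SE, and open points have an edgeR adjusted p of 0.05 or more. Dpf1 lies at 3.03 in HPmECC and 2.19 in mECC; Chd3 lies at 1.38 in mECC and close to 0 in HPmECC.

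Smarca2 (ENSMUSG00000024921, GRCm38 chr19:26605050-26778322, plus strand), the BRM ATPase, was the SWI/SNF subunit that fell most in HPmECC. It had 13.002, 12.9, 11.3 and 12.2 CPM in the 4 HPmECC libraries, against 31.3, 33.6, 30.5 and 33.8 in mECC and 33.7, 36.7, 33.5 and 34.98 in normal cells. Every HPmECC library was below every other library, while mECC and normal cells overlapped. The level was 2.6004-fold lower in HPmECC than in mECC (a change of -1.38 on the log2 scale with SE 0.056, edgeR adjusted p = 1.33e-13) and 2.796-fold lower than in normal cells (edgeR adjusted p = 8.94e-15). In mECC against normal cells the log2 fold change was -0.10 (edgeR adjusted p = 0.0607). That difference sat at the threshold: it was called lower with median-of-ratios factors, at a minimum of 10 CPM, in DESeq2 and with the replicate block (adjusted p = 0.0266, 0.0431, 0.0407 and 0.0449), and without mECC replicate 4 or normal replicate 3. Under library totals it was called higher, at 0.14 (edgeR adjusted p = 0.0169). Smarca4, the BRG1 ATPase, was called higher in both lines than in normal cells by 0.15 and 0.12 on the log2 scale, with 288 ± 7.65 CPM in HPmECC, 281 ± 10.8 in mECC and 259 ± 5.85 in normal cells.

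TPM values, which divide by the length of the transcripts that RSEM assigned reads to, gave another picture of Smarca2. Its TPM values were 14.6, 15.5, 11.01 and 15.7 in HPmECC, 34.1, 34.4, 31.1 and 34.9 in mECC and 13.9, 17.6, 14.1 and 16.2 in normal cells. Per length, mECC thus stood above both other groups, which overlapped. On log2(TPM + 1) in limma, Smarca2 was higher in mECC than in normal cells, with a log2 fold change of 1.08 and a limma adjusted p of 3.48e-07. The difference between HPmECC and normal cells was not called, at -0.12 with a limma adjusted p of 0.285. That fit also uses no TMM factors, and its median shift over all genes was 0.24 in mECC and 0.17 in HPmECC against normal cells. The ratio of counts to TPM, relative to the median gene of the library, measures the length assigned. It was 0.642 ± 0.081 in HPmECC, 0.727 ± 0.022 in mECC and 1.45 ± 0.11 in normal cells (SD, n = 4 each), 55.6% shorter in HPmECC and 49.7% shorter in mECC than in normal cells, with no overlap with normal cells. Of 10219 genes with at least 5 TPM, 2 changed more in HPmECC against normal cells and 5 in mECC against normal cells. The other 39 subunits with a value changed by at most 26.1% in any comparison, and none of them without overlap between the groups among changes over 10%.

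GENCODE release M21 lists 46 Smarca2 transcripts, 27 of them coding. Among the coding ones 3 run the full length, 5703 to 5921 bases, and 17 start far inside the gene, between chr19:26747600 and chr19:26748532, 142.55 kb from its first base, and are 630 to 2333 bases long. The deposited tables are per gene and do not say which of these transcripts the reads came from. The 708 coding bases of 1 short transcript all lie, in the same frame, within the 4749 coding bases of a full-length one, from its base 4042 (codon 1348) on, and are 14.9% of it, so this short form codes for the end of the protein without the ATPase. The first 90 coding bases of that short transcript (chr19:26751851-26751940, GRCm38, plus strand) are shown because they are where its reading frame starts inside that of the long form; capitals mark its start codon.
Smarca2 short form: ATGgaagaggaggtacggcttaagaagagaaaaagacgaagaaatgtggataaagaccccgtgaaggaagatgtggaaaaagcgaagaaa

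**Figure D3:**
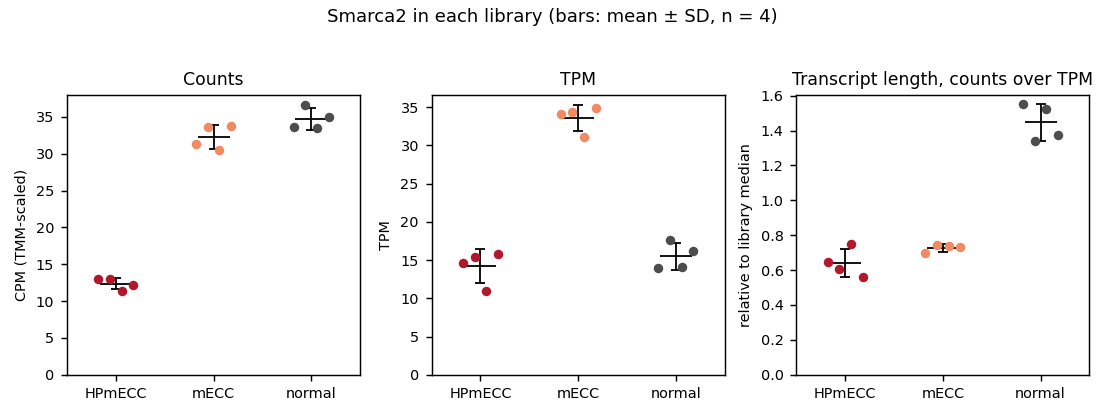
Smarca2 in each of the 12 libraries as CPM, as TPM and as assigned transcript length relative to the library median; lines are means and bars SD over 4 libraries. By counts HPmECC stands alone below, by TPM mECC stands alone above, and the assigned length is 0.642 in HPmECC and 0.727 in mECC against 1.45 in normal cells.

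Of the BAF subunits that carry an ARID domain, Arid1a was lower and Arid1b higher in both lines than in normal cells. Arid1a had 120.1, 101, 114 and 122 CPM in HPmECC, 84.7, 91.7, 95.2 and 99.4 in mECC and 135, 141, 142 and 141 in normal cells, with no overlap among the 3 groups. It was lowest in mECC (a change of -0.59 on the log2 scale with SE 0.052, edgeR adjusted p = 2.98e-09), and the smaller change in HPmECC, -0.29, was not called under library totals or TPM. Arid1b had 91.2 ± 2.22 CPM in HPmECC, 105 ± 3.66 in mECC and 73.5 ± 4.002 in normal cells, a log2 fold change of 0.31 in HPmECC and 0.52 in mECC against normal cells. By TPM, Arid1a made up 55.5% ± 2.0 of the ARID1 pair in HPmECC, 46.4% ± 1.4 in mECC and 64.3% ± 1.2 in normal cells (SD, n = 4 each), and the groups did not overlap.

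The subunits of PBAF, the form with several bromodomains, did not move together. Phf10, the PHD-finger subunit of PBAF, had 200.1, 191, 197 and 178 CPM in HPmECC, 153, 154, 158 and 158 in mECC and 63.4, 60.05, 60.1 and 62.4 in normal cells, all 3 groups apart. It was 3.11-fold higher in HPmECC and 2.53-fold higher in mECC than in normal cells (edgeR adjusted p = 2.58e-18 and 6.44e-17). Pbrm1, its subunit with 6 bromodomains, went the other way, with 93.8 ± 5.14 CPM in HPmECC, 82.2 ± 1.87 in mECC and 136 ± 5.31 in normal cells (log2 fold change -0.54 in HPmECC and -0.72 in mECC against normal cells). Arid2, the ARID subunit of PBAF, rose by 0.50 in HPmECC and 0.17 in mECC on the log2 scale, and Brd7, a bromodomain subunit, by 0.53 and 0.42. Between the lines Phf10, Pbrm1, Arid2 and Brd7 were all called higher in HPmECC, by 0.30, 0.19, 0.32 and 0.12; for Brd7 the direction turned on TPM, at -0.07. Brd9, the bromodomain subunit that marks non-canonical BAF, was lower in HPmECC than in mECC, at -0.23, and higher in mECC than in normal cells, at 0.30.

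In the BAF45 group, whose members read histone tails through PHD fingers and take 1 place in the complex, Dpf1 had the largest fold change of all subunits against normal cells in HPmECC. Dpf1, known from BAF of neurons, had 7.08, 7.11, 7.56 and 7.33 CPM in HPmECC, 4.66, 3.67, 4.46 and 3.36 in mECC and 1.22, 0.675, 0.881 and 0.826 in normal cells. The groups did not overlap, and the log2 fold change was 3.03 in HPmECC and 2.19 in mECC against normal cells, SE 0.16 and 0.17 (edgeR adjusted p = 1.45e-12 and 6.68e-10). It stayed the smaller part of its group by TPM, 2.81% in HPmECC, 2.03% in mECC and 1.07% in normal cells. The 8 neuronal markers summed to medians of 12.6 CPM in HPmECC, 38.8 in mECC and 4.65 in normal cells, with Rbfox3 at 0 in all 12 libraries; their part in the change of Dpf1 was not tested. Dpf2, the widely expressed member, was higher in both lines than in normal cells, at 0.41 in HPmECC and 0.45 in mECC, and did not pass the test between the lines, except under library totals, where it was lower in HPmECC at -0.09.

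Among the core subunits, all 3 members of the SMARCD family were higher in both lines than in normal cells. Smarcd1 had 59.7, 61.7, 61.4 and 61.5 CPM in HPmECC, 53.7, 56.6, 54.1 and 54.5 in mECC and 23.6, 23.5, 24.02 and 21.7 in normal cells, that is 2.64-fold higher in HPmECC and 2.36-fold higher in mECC than in normal cells (edgeR adjusted p = 6.16e-17 and 4.36e-16). Smarcd2 rose less, by 0.65 in HPmECC and 0.56 in mECC on the log2 scale. Smarcd3, known from heart and muscle BAF, had 16.9, 14.98, 13.96 and 16.2 CPM in HPmECC, 20.6, 20.9, 21.2 and 20.8 in mECC and 3.18, 4.26, 4.297 and 4.45 in normal cells, with log2 fold changes of 1.92 in HPmECC and 2.35 in mECC. Its value is uncertain: 2466 of its 5120 exon bases are shared with exons of Chpf2 on the other strand, no strand setting is given in the sources used here, and Chpf2 held 29069 counts over the 12 libraries against 3954 for Smarcd3. Chpf2 changed in the same directions, by 0.68 in HPmECC and 1.48 in mECC against normal cells and by -0.80 in HPmECC against mECC, where Smarcd3 changed by -0.42.

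Smarcb1 (SNF5), the core subunit lost in rhabdoid tumors, was highest in HPmECC and lowest in normal cells, with 121, 127, 120.3 and 119 CPM in HPmECC, 91.8, 87.98, 91.4 and 89.1 in mECC and 68.9, 64.3, 68.9 and 68.6 in normal cells, and no overlap. Its log2 fold change was 0.85 in HPmECC and 0.41 in mECC against normal cells, and 0.44 between the lines (edgeR adjusted p = 5.53e-10). Smarce1, a DNA-binding HMG-box subunit, rose by 0.54 in HPmECC and 0.75 in mECC. The scaffold paralogs Smarcc1 and Smarcc2 went apart between the lines, by 0.19 and -0.25 in HPmECC against mECC. Bcl7a exceeded its mECC level 1.59-fold in HPmECC, with 35.5 ± 0.54 CPM in HPmECC and 22.2 ± 1.36 in mECC, and normal cells, at 21.2 ± 1.75, overlapped with mECC; under library totals and log2(TPM + 1) mECC was called higher than normal cells, at 0.31 and 0.27. Actl6a, the actin-related subunit of dividing cells, was higher in HPmECC than in either other group, by 0.27 against mECC and 0.26 against normal cells. Ss18, which joins the canonical and non-canonical forms, was lower in both lines than in normal cells, at -0.33 in HPmECC and -0.37 in mECC.

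**Figure D4:**
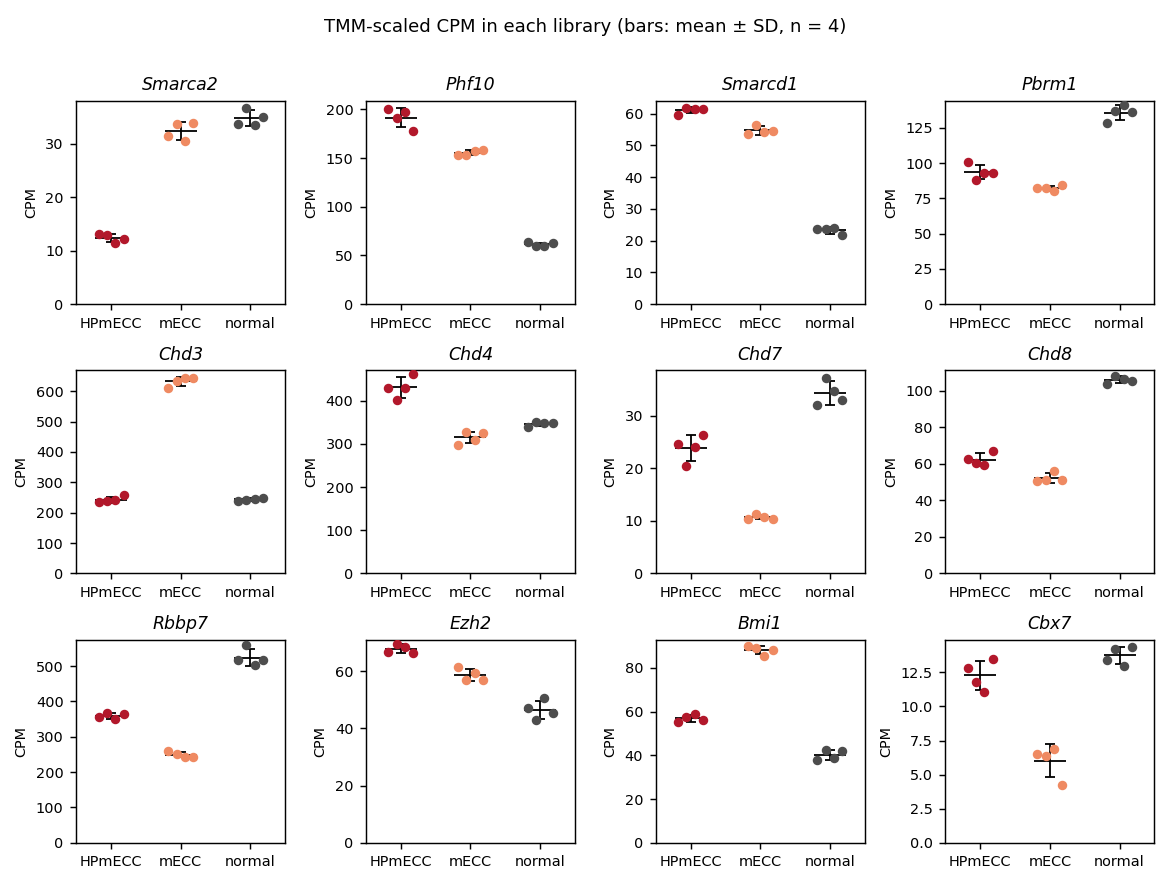
TMM-scaled CPM of 12 subunits in each library (points), with mean and SD over 4 libraries (bars), for HPmECC, mECC and normal cells. Smarca2 is low in HPmECC alone, Chd3 and Bmi1 are highest in mECC, and Chd7, Chd8, Rbbp7 and Cbx7 are lowest in mECC.

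Among the CHD genes, Chd3 (ENSMUSG00000018474, GRCm38 chr11:69343273-69369406, minus strand), 1 of the NuRD motors, was highest in mECC. It had 236, 238, 242 and 258 CPM in HPmECC, 611, 633, 644 and 643 in mECC and 239, 241, 245 and 249.7 in normal cells. The mECC libraries stood far above the rest, while HPmECC and normal cells overlapped. Chd3 was 2.599-fold lower in HPmECC than in mECC (SE 0.03 on the log2 scale, edgeR adjusted p = 1.80e-17) and 2.595-fold higher in mECC than in normal cells (edgeR adjusted p = 1.73e-18). Chd4, the alternative motor, was highest in HPmECC, with 429.9, 402, 430.2 and 462 CPM there, 299, 328, 309.6 and 324 in mECC and 339.8, 349.9, 348 and 349 in normal cells. Its log2 fold change was 0.45 in HPmECC against mECC (edgeR adjusted p = 3.33e-09) and 0.31 against normal cells; the change of -0.14 in mECC against normal cells was 0.10 under library totals. By TPM, Chd3 made up 50.3% ± 0.81 of the pair in HPmECC, 78.3% ± 1.2 in mECC and 56.3% ± 0.29 in normal cells (SD, n = 4 each), without overlap.

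The genes next to Chd3 were called in both directions. Of 25 other tested genes within 300 kb, 9 were called higher and 8 lower in HPmECC against mECC, with a median log2 fold change of 0.02. Of all genes 33.8% were called higher and 34.5% lower in that comparison. In mECC against normal cells 15 of the 25 were higher and 7 lower, against 42.1% and 44.2% of all genes. Their median was 0.33, and -0.018 over all genes. In HPmECC against normal cells 14 of the 25 were higher and 7 lower, against 43.0% and 43.3% of all genes. Their median was 0.29, and 0.0012 over all genes. The part of position in the change of Chd3 was not tested. Trp53, which encodes p53 and was named after its values were seen, lies 211 kb from Chd3 and was at 1.47 CPM in HPmECC and 2.14 in mECC, against 141 in normal cells. Of the 12 NuRD partners of Chd3 and Chd4, 5 were called higher and 4 lower in HPmECC against mECC. The partner Mta1 was at 166 CPM in HPmECC and 91.1 in mECC, and Gatad2b was 0.33 higher on the log2 scale. Hdac1, a deacetylase of the complex, was lower in both lines than in normal cells, at -0.56 in HPmECC and -0.34 in mECC, while Cdk2ap1 was higher, at 1.36 and 1.35.

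Chd7 (ENSMUSG00000041235, GRCm38 chr4:8690406-8867659, plus strand), an ATPase that acts at enhancers and whose human gene is mutated in CHARGE syndrome, was lowest in mECC. It had 24.7, 20.4, 24.1 and 26.3 CPM in HPmECC, 10.4, 11.3, 10.8 and 10.4 in mECC and 32.03, 37.3, 34.7 and 33.1 in normal cells, and the 3 groups did not overlap. The log2 fold change was 1.15 in HPmECC against mECC, -1.68 in mECC against normal cells and -0.52 in HPmECC against normal cells (edgeR adjusted p = 1.30e-10, 8.25e-14 and 7.13e-07). Chd8, its close relative, had the same order, with 62.6, 60.5, 59.3 and 67.1 CPM in HPmECC, 50.6, 51.3, 56.2 and 51.2 in mECC and 104, 108, 107 and 106 in normal cells, and was 1.6999-fold lower in HPmECC and 2.03-fold lower in mECC than in normal cells. The difference of 0.25 between the lines was not called on TPM. Chd1, which binds methylated histone H3 at active genes, was higher in HPmECC than in mECC, by 0.31. Of the other 4 CHD genes measured, Chd9 was lower in HPmECC than in mECC, at 56.2 against 102 CPM, and at 179.8 in normal cells; Chd2, Chd6 and Chd1l were called higher in HPmECC than in mECC.

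The PRC2 subunits were called higher in HPmECC than in mECC in 5 of 6 cases, against 33.8% of all genes. The core of PRC2 comprises the methyltransferase, Eed, which binds the methylated histone, Suz12 and the histone-binding Rbbp7. Ezh2 had 66.9, 69.7, 68.6 and 66.3 CPM in HPmECC, 61.5, 57.02, 59.3 and 56.98 in mECC and 47.2, 43.1, 50.6 and 45.3 in normal cells, so HPmECC was highest and the groups did not overlap. The difference between the lines was 0.21 on the log2 scale (edgeR adjusted p = 2.07e-04), and on log2(TPM + 1) it was -0.03 and not called. The assigned transcript length of Ezh2 was 13.5% longer in HPmECC, at 0.975 ± 0.035 against 0.859 ± 0.069 in mECC, and the lines overlapped in it. Eed differed by 0.38, Suz12 by 0.23, the accessory subunit Jarid2 by 0.33 and Rbbp7 by 0.53 between the lines (edgeR adjusted p = 6.07e-07, 8.80e-06, 4.60e-04 and 5.27e-11). Ezh1, the methyltransferase of resting cells, did not pass the test between the lines, with 25.998 ± 0.85 CPM in HPmECC and 26.5 ± 0.94 in mECC.

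Against normal cells the PRC2 subunits split. Ezh2 was higher, by 0.55 in HPmECC and 0.34 in mECC on the log2 scale, and so was Suz12, by 0.43 and 0.20. Ezh1 was lower, at -0.44 and -0.42, and its normal value was 35.4 ± 1.35 CPM. Rbbp7 (ENSMUSG00000031353, X chromosome), which also serves NuRD, had 356, 368, 349.8 and 365 CPM in HPmECC, 259, 251, 244 and 244 in mECC and 516, 558, 503 and 517 in normal cells, with all groups apart, and was 1.46-fold lower in HPmECC and 2.1005-fold lower in mECC than in normal cells (edgeR adjusted p = 7.95e-12 and 2.35e-16). Eed was lower in mECC, at -0.61, and the smaller change of -0.23 in HPmECC was not called under library totals and was 0.03 on log2(TPM + 1). By TPM, Ezh2 made up 81.6% ± 0.33 of the Ezh2 and Ezh1 pair in HPmECC, 80.8% ± 1.1 in mECC and 71.2% ± 1.9 in normal cells; the lines overlapped and both lay above normal cells.

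Of 8 other PRC2 subunits tested, 7 were called higher and 0 lower in HPmECC against mECC, with a median log2 fold change of 0.35. Of all genes 33.8% were called higher and 34.5% lower in that comparison. The 7 subunits were led by Epop, with 16.1 CPM in HPmECC and 8.66 in mECC, and Phf19, a polycomb-like recruiter, with 14.8 and 9.14. Of the 18 proliferation genes, 17 were called higher and 1 lower in the same comparison, with a median of 0.41; the part of proliferation in the PRC2 differences was not tested. Against normal cells 5 of the 8 were higher and 2 lower in HPmECC, and 3 higher and 3 lower in mECC. Of all genes 43.0% were higher and 43.3% lower in HPmECC, and 42.1% and 44.2% in mECC. Phf1, another polycomb-like protein, was higher in both lines, at 1.28 in HPmECC and 1.31 in mECC, and Lcor lower, at -1.04 and -1.52. Among 10 opponents of polycomb, such as the demethylases Kdm6a and Kdm6b and the MLL methyltransferases, 7 were called higher and 1 lower in HPmECC against mECC. Kmt2d, a methyltransferase of enhancers, had 61.9 CPM in HPmECC, 40.3 in mECC and 102 in normal cells.

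In PRC1, Bmi1 (ENSMUSG00000026739, GRCm38 chr2:18677018-18686629, plus strand), the PCGF subunit known from stem cell self-renewal, was highest in mECC. It had 55.2, 57.4, 59.04 and 56.1 CPM in HPmECC, 90.2, 89.1, 85.4 and 88.05 in mECC and 37.6, 42.3, 38.95 and 41.8 in normal cells, with no overlap among the groups. Bmi1 was 1.55-fold lower in HPmECC than in mECC (a change of -0.63 on the log2 scale with SE 0.037, edgeR adjusted p = 2.40e-11), and 1.41-fold higher in HPmECC and 2.19-fold higher in mECC than in normal cells. Its paralog Pcgf2 was higher in both lines than in normal cells, by 0.87 in HPmECC and 0.90 in mECC, and did not pass the test between the lines. Of the E3 ligases, Ring1 was higher in both lines than in normal cells, by 0.57 and 0.50. Rnf2, which carries most of the ligase activity, had 45.9 ± 0.97 CPM in HPmECC, 49.5 ± 2.16 in mECC and 51.2 ± 1.64 in normal cells; its call between the lines, -0.11, came with overlapping groups and was lost without HPmECC replicate 4 or mECC replicate 4 and on TPM.

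The chromobox subunits, which read the methyl mark and so tether PRC1, changed their proportions. Cbx7 (ENSMUSG00000053411, GRCm38 chr15:79915807-79971119, minus strand) had 12.8, 11.8, 11.1 and 13.5 CPM in HPmECC, 6.54, 6.396, 6.89 and 4.21 in mECC and 13.4, 14.2, 13.002 and 14.4 in normal cells. The mECC libraries were lowest, and HPmECC and normal cells overlapped. The log2 fold change was 1.03 in HPmECC against mECC and -1.19 in mECC against normal cells (edgeR adjusted p = 1.32e-07 and 9.28e-09). Of its 6487 exon bases 100 are shared with exons of Apobec3 on the other strand, which held 17798 counts against 2846 for Cbx7. Apobec3 changed by -0.20 and 0.07 in the same comparisons. The part of these shared bases in the Cbx7 values was not tested. Cbx2 had 19.1, 18.8, 19.5 and 20.4 CPM in HPmECC, 19.8, 18.2, 19.03 and 17.02 in mECC and 9.55, 8.99, 7.88 and 8.22 in normal cells, 2.26-fold higher in HPmECC and 2.15-fold higher in mECC than in normal cells. Cbx8, its neighbour on chromosome 11, overlapped among all groups, at 9.54 ± 0.73 in HPmECC, 10.3 ± 0.73 in mECC and 8.42 ± 0.78 in normal cells. It was called higher in mECC than in normal cells, by 0.30 on the log2 scale (edgeR adjusted p = 0.00302). In HPmECC against normal cells it was at 0.19 and not called (edgeR adjusted p = 0.0551), but was called higher under library totals, at 0.38, without a filter, at 0.22, on log2(TPM + 1), at 0.31, and without HPmECC replicate 1, HPmECC replicate 4, mECC replicate 1 or normal replicate 1. By TPM, Cbx7 made up 28.7% ± 3.1 of the sum of these 3 in HPmECC, 15.2% ± 3.4 in mECC and 42.2% ± 4.4 in normal cells, and Cbx2 made up 33.1% ± 1.5, 39.3% ± 4.5 and 17.6% ± 1.4. Of the polyhomeotic subunits, Phc1 was higher and Phc2 lower in both lines than in normal cells. Phc2, at 127 ± 4.76 CPM in HPmECC, 143 ± 3.65 in mECC and 225 ± 6.91 in normal cells, fell by 0.83 in HPmECC and by 0.65 in mECC on the log2 scale.

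Of 15 other PRC1 subunits tested, 6 were called higher and 5 lower in HPmECC against mECC, with a median of 0.07. Of all genes 33.8% were called higher and 34.5% lower in that comparison. Rybp, which defines variant PRC1, had 154 CPM in HPmECC, 270.3 in mECC and 84.2 in normal cells, the order seen for Bmi1, and Pcgf5 had 35.3, 18.96 and 30.6, lowest in mECC. Against normal cells 11 of the 15 were higher and 3 lower in HPmECC, and 9 higher and 5 lower in mECC. Of all genes 43.0% were higher and 43.3% lower in HPmECC, and 42.1% and 44.2% in mECC. Of 6 other SWI/SNF subunits tested, 3 were called higher and 0 lower in HPmECC against mECC; Bicra, a non-canonical BAF subunit, differed by 0.53, and Bcl7c was higher in both lines than in normal cells, by 1.05 in HPmECC and 1.09 in mECC. Among 14 ISWI and INO80 remodelers 9 were called higher and 1 lower in HPmECC against mECC. Smarca1, an ISWI ATPase, had 10.3 CPM in HPmECC, 4.85 in mECC and 0.542 in normal cells.

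**Figure D5:**
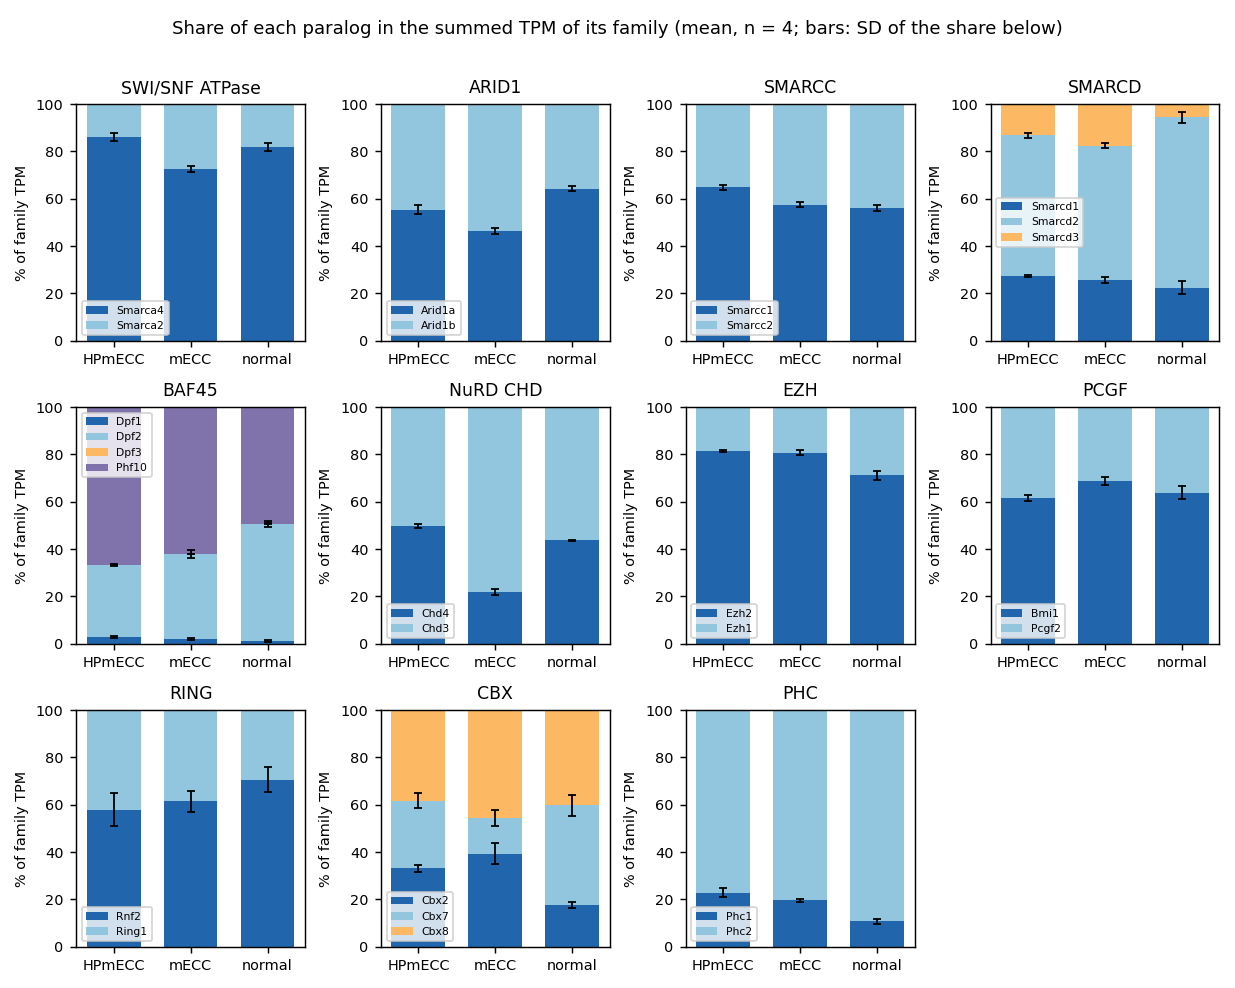
Share of each paralog in the summed TPM of its family, mean of 4 libraries per group; each error bar is the SD of the share of the segment below it. Chd3 takes 78.3% of its pair in mECC against 56.3% in normal cells, and Cbx7 takes 15.2% of the CBX sum in mECC against 42.2%.

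Compared per length, the subunits covered a wide range of levels, from 329 TPM of Rbbp7 to 7.14 TPM of Chd7 in HPmECC, with Dpf3 lower still at 0.06. Rbbp7 was the highest in HPmECC and normal cells, and in mECC Chd3 was, at 339.6 ± 23.1 TPM against 238 ± 10.8 TPM of Rbbp7. The 42 subunits summed to 2356 to 2400.2 TPM in HPmECC, 2406 to 2499 in mECC and 1881 to 1937 in normal cells. The SWI/SNF subunits alone summed to 1277 ± 22.5 TPM in HPmECC, 1249 ± 24.1 in mECC and 789 ± 10.2 in normal cells, and the lines differed by little more than 1 SD of either. Sums of TPM carry no TMM factors. In TMM-scaled CPM, which are not divided by length, the SWI/SNF subunits summed to 2096 ± 28.5 in HPmECC, 1979 ± 37.0 in mECC and 1704 ± 21.5 in normal cells. The sizes of the differences between groups thus depend on the measure. The PRC2 subunits summed to 494 ± 8.1 TPM in HPmECC, 389 ± 17.6 in mECC and 571 ± 23.0 in normal cells, most of it Rbbp7. Without Rbbp7 the other 5 summed to 164 ± 3.5, 151 ± 8.1 and 131 ± 11.3 TPM in the same order of groups. The mean was thus lowest in mECC with Rbbp7 and in normal cells without it. Without Rbbp7, however, mECC at 141 to 161 TPM overlapped with normal cells at 122 to 146.

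The promoters of the subunits were searched for CACGTG, the E-box that Myc and many other factors bind; the Myc level in HPmECC exceeded that in mECC 4.48-fold. RefSeq windows (GRCm38.p6, 250 bases before to 50 after the start) were held for 34 of the 42, and Arid2, Bcl7a, Cbx2, Chd1, Chd3, Chd7, Smarce1 and Ss18 had none. The motif, which reads the same on both strands, was in 5 of 40 windows (12.5%), against 2349 of 32851 windows of all genes (7.15%). The genes were Bmi1, Phc2, Pcgf2, Cbx8 and Pbrm1, the first 4 of them in PRC1. In HPmECC against mECC, Bmi1 and Phc2 were called lower, at -0.63 and -0.17, Pbrm1 was called higher, at 0.19, and Pcgf2 and Cbx8 were not called. In HPmECC against normal cells, Bmi1 and Pcgf2 were called higher, at 0.50 and 0.87, Phc2 and Pbrm1 lower, at -0.83 and -0.54, and Cbx8 was not called. The part of Myc in these changes was not tested. A match of letters shows no binding. In Pbrm1 the motif lies in an annotated exon, and that stretch is not shown. The stretches around the motif in the 4 PRC1 promoters are shown 5′ to 3′ on the strand of the gene with the motif in capitals. In these 4 the motif lies outside annotated exons, upstream of the RefSeq start that each window was drawn from. The 4 stretches lie at chr2:18676768-18676868 (Bmi1), chr4:128654585-128654701 (Phc2), chr11:97699720-97699845 (Pcgf2) and chr11:119040970-119041071 (Cbx8). The Pcgf2 stretch lies inside the gene as GENCODE M21 bounds it (chr11:97688823-97700497, minus strand), downstream of its first annotated base.
Bmi1: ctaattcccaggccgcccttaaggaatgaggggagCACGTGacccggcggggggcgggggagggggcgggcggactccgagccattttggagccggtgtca
Phc2: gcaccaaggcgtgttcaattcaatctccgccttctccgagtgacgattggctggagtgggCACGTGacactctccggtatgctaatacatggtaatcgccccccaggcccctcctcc
Pcgf2: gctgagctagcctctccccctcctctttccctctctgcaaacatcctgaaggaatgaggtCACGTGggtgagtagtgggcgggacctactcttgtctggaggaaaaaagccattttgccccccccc
Cbx8: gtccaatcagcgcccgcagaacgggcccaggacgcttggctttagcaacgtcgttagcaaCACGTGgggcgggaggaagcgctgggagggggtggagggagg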

How the data were processed

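RNA was measured in 12 libraries from mouse cells, 4 each of HPmECC, mECC and normal endometrial cells, grouped by their labels. Per the submitters' processing notes, the authors used Trim Galore, STAR 2.6.1a, RSEM 1.3.1 and genome build GRCm38; for the annotation release and the strand setting, no source used here gives a value. The deposited expected counts are RSEM's estimates per gene, held as whole numbers. The deposited TPM values are the authors' length-scaled RSEM abundances and served for levels between genes, paralog shares and assigned lengths. RSEM divides reads that fit several transcripts or genes, so near-identical sequences and genes that overlap on opposite strands are uncertain.

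The test on counts was that of edgeR 4.0.16, run in R 4.3.3 (filterByExpr with a minimum of 10 counts, TMM factors, quasi-likelihood test, 1 coefficient per group over all 12 libraries, no replicate block), with Benjamini-Hochberg adjustment over 15283 genes and a threshold of 0.05. The biological coefficient of variation was 4.27%. CPM values are TMM-scaled; errors are SD over 4 libraries unless marked SE. Fold changes are the first-named over the second-named group. Paralog shares and lengths were not tested. The script was checked on simulated counts. As alternatives, size factors by median of ratios, library totals, no filter, a minimum of 10 CPM in 4 libraries, DESeq2 1.42.0, limma 3.58.1 on log2(TPM + 1) and log2(TPM + 0.1), the 2 groups compared alone, a replicate block, and leaving out each library in turn were run.

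The subunits, gene lists and tests were chosen with earlier results of these data known. All subunits are described; from each list of related genes, called genes of the largest change with at least 5 CPM were named. Transcripts and coordinates are from GENCODE M21, and promoters from RefSeq, both on GRCm38. FPKM values were not used here.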

Additional observations from a re-analysis of the deposited data

Results flagged for a closer look

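Dixon's test for a library far from the other 3 of its group was run on 124 groups of 4 CPM values, and 10 were flagged, where chance flags about 1 in 20, or 6.2. In HPmECC, replicate 1 was low for Smarcd1, at 59.72 CPM against 61.4 to 61.7 in the others, and replicate 2 was high for Ring1, at 25.06 against 22.3 to 22.6, and for Smarcb1, at 127.5 against 119 to 121. In mECC, replicate 1 was low for Arid2, at 91.51 against 96.9 to 98.0, and for Bcl7a, at 20.18 against 22.7 to 23.1. Also in mECC, replicate 3 was high for Chd8, at 56.24 against 50.6 to 51.3, and for Phc1, at 58.92 against 54.4 to 54.8. In normal cells, replicate 1 was low for Arid1a, at 135.0 against 141 to 142, and for Smarcd3, at 3.182 against 4.26 to 4.45, and replicate 2 was low for Smarcb1, at 64.26 against 68.6 to 68.9.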

How the results depend on the processing

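Sampling depth limits the lowest subunits, Dpf3 above all, and no p-value covers spread beyond these libraries. Same-numbered libraries correlated between -0.03 and 0.08 in their deviations from the group means, and 2 in each comparison matched best with their own number, so the numbers were not taken to pair libraries. With the replicate block 22 subunits were called higher and 10 lower in HPmECC against mECC, 24 and 12 in HPmECC against normal cells, and 23 and 13 in mECC against normal cells, where the added call was Smarca2, at -0.10 (edgeR adjusted p = 0.0449). Over libraries left out in turn, the counts called higher and lower were 21 to 23 and 9 to 10, 24 to 26 and 12, and 23 to 24 and 12 to 13 in the same order of comparisons; at 2-fold or more the subunits higher in HPmECC against mECC ranged from 1 to 2. The causes of the changes that follow were not tested. The TPM fits differ from the main test in more than 1 way, since they divide by assigned length and use no TMM factors. On log2(TPM + 1) the median shift over all genes was -0.06 in HPmECC against mECC. It was 0.24 in mECC and 0.17 in HPmECC against normal cells, near the 0.24 and 0.20 under library totals.

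Counts at 2-fold or more moved under library totals, log2(TPM + 1) and log2(TPM + 0.1): higher in HPmECC against mECC to 1, 0 and 1, and lower in mECC against normal cells to 1, 2 and 2. Under both TPM fits, subunits called lower in HPmECC against normal cells numbered 7, and at 2-fold or more 0. All genes called lower or higher stayed within 1.5 times of the main counts under every alternative.

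Some log2 fold changes turned direction. HPmECC against mECC: Smarca4 -0.012 and Ss18 -0.0055 under library totals; under the TPM fits with 1 and 0.1 added, Smarca4 -0.0288 and -0.0291, Smarcd2 -0.00253 and -0.00256, Brd7 -0.0688 and -0.0696, Ezh2 -0.0336 and -0.0341, and Cbx2 -0.0112 and -0.0120. In mECC against normal cells, under library totals and the 2 TPM fits, Smarca2 was 0.14, 1.08 and 1.12, Actl6a 0.229, 0.235 and 0.239, Chd4 0.102, 0.124 and 0.125, and Rnf2 0.190, 0.233 and 0.239. Actl6a was also 0.026 without a filter and 0.014 with the 2 groups alone, and -0.039 to 0.013 over left-out libraries. Jarid2 was -0.0188 with median-of-ratios factors, -0.0033 at a minimum of 10 CPM and -0.0163 in DESeq2, and -0.061 to 0.077 over left-out libraries. In HPmECC against normal cells, under library totals and the TPM fits, Chd3 was 0.194, 0.144 and 0.145 and Rnf2 0.035, 0.112 and 0.115. Chd3 was also 0.032 without a filter and -0.024 to 0.018 over left-out libraries, Cbx7 was 0.037 under library totals, and Eed was 0.0283 and 0.0289 in the TPM fits.

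Paralog shares by counts in place of TPM moved in these percentage points. HPmECC minus mECC: Smarca4 6.18, Chd4 30.7 and Ezh2 3.42. HPmECC minus normal cells: Smarca4 7.70, Smarcd1 8.95, Chd4 5.18, Ezh2 15.6, Bmi1 -5.46, Cbx2 19.1 and Phc1 16.2. mECC minus normal cells: Smarcd1 6.71, Chd4 -25.5, Ezh2 12.1 and Phc1 12.4, while Smarca4 was 1.53 by counts and -9.07 by TPM.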
